A study of Mus musculus with 4 samples.

Results

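V(D)J recombination joins the variable, diversity and joining segments of immunoglobulin and T cell receptor genes. RAG1 and RAG2 together form the recombinase that cuts beside the segments, and terminal deoxynucleotidyl transferase, encoded by Dntt, adds untemplated nucleotides at the joints before the ends are ligated. Once a heavy chain has been made, the surrogate light chain, built from a VPREB protein and λ5 (the product of Igll1), pairs with it to form the pre-B cell receptor of early B cell precursors. These genes are textbook markers of lymphoid precursors in bone marrow and are usually low in committed myeloid cells.

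The 7 genes described here were Dntt, Rag1, Rag2, Vpreb1, Vpreb2, Vpreb3 and Igll1, and all 7 were found by Ensembl identifier among the 23552 genes of the FPKM table (fragments per kilobase of exon, scaled to the number of mapped fragments of the library). They were chosen by name after the difference between SUV-OE and control in these same libraries was known, so the differences between the groups below are a description that carries no test. The samples were AML c-Kit+ cells taken from the bone marrow of moribund C57BL/6 mice (C57BL/6J in the methods), with leukemia driven by the MLL-AF9 fusion in both groups. The control libraries (replicates 3 and 4, n = 2) carried the eGFP control, and the SUV-OE libraries (replicates 2 and 3, n = 2) overexpressed Suv39h1, a histone H3 lysine 9 methyltransferase, together with eGFP. All 4 libraries belonged to RNA-seq batch 2. According to the methods, mice were female and 8 weeks old, the leukemia cells had already been passed through serial transplants before they were transduced with the virus, and recipients were sublethally irradiated, a dose that does not clear all host marrow, and the share of host cells in these samples was not measured. Suv39h1 was cloned into an MSCV-IRES-EGFP plasmid, so a viral promoter drove it rather than that of a blood cell gene. The labels do not say whether the RNA samples were sorted on eGFP as well as c-Kit, nor that each replicate was a separate mouse, so p-values measure the spread between these samples, which may be technical.

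Suv39h1 was 12.4 and 12.4 FPKM in control and 75.3 and 81.2 FPKM in SUV-OE, a difference of 2.56 ± 0.11 (SE, n = 2 per group) in log2(FPKM + 1), with a limma Benjamini-Hochberg adjusted p of 0.00866. Kit was between 19.2 and 28.6 FPKM in all 4 libraries, and Elane, a neutrophil protease of myeloid progenitors, was between 1385 and 1825 FPKM. Read numbers worked back from the FPKM steps came to between 18584954 and 21771282 per library. The FPKM themselves were scaled to totals of 16873770 to 19453058 reads, worked back from the same steps, so that 3 reads on a transcript of 1 kb correspond to 0.154 to 0.178 FPKM.

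Upstream sequences of these genes are shown first, because several members were higher together in SUV-OE and because Vpreb1 and Vpreb2 are near copies of each other. They are RefSeq sequences of build GRCm38.p6, written 5′ to 3′ on the strand of the gene and ending at the base before the RefSeq start, and capitals mark a searched motif. Distances below are from that start. The gene spans given with the values come from GENCODE M21, and for Vpreb1, Vpreb2 and Vpreb3 the RefSeq start lies inside that span, by 1588, 137 and 5243 bases, so their windows are not upstream of the whole annotated gene. The motifs, searched on both strands, were CAGGTG (an E-box bound by E2A), CCCNNGGG (an EBF1 core), TGTGGT (a RUNX motif), TGGGAA (an Ikaros motif) and TATAAA (the TATA box), and no matches overlapped each other in these windows. The neighbours Rag1 (chr2:101649533-101649782, minus strand) and Rag2 (chr2:101624462-101624711, plus strand) are shown because Rag1 was the lower of the pair in control and the higher in SUV-OE. Igll1 (chr16:16863986-16864235, minus strand) and Dntt (chr19:41029025-41029274, plus strand) stand for windows with and without matches among the genes with the widest separation between the groups.
Rag1: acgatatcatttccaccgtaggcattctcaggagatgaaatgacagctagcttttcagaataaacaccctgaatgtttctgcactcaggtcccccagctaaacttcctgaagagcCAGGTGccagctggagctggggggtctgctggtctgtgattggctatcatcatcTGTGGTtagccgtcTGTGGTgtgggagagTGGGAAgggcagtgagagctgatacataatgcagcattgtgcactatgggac
Rag2: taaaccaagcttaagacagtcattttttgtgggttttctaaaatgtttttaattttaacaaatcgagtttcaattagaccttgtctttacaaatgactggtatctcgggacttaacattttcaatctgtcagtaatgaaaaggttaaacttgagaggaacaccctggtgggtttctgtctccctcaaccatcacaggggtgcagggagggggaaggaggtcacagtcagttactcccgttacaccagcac
Igll1: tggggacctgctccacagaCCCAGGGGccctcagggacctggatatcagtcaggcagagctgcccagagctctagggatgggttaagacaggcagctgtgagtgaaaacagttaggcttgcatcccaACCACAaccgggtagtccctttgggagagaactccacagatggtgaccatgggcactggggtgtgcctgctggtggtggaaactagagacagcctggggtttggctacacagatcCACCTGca
Dntt: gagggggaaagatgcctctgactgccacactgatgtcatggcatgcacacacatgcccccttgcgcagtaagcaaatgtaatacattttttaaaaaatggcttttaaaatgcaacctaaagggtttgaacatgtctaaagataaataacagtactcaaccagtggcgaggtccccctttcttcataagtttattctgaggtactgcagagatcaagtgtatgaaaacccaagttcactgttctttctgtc
Counted at its first base, the E-box stood 135 bases before the start of Rag1 and, on the opposite strand, 8 bases before that of Igll1. Rag1 also held the RUNX motif at 81 and 67 bases and the Ikaros motif at 52 bases before its start. Igll1 was the only one of the 7 windows with the EBF1 core, at 231 bases before the start. None of the letters searched were found in the windows of Rag2 or Dntt, which says only that these letters are not there. Over the 250-base windows of all 7 genes the E-box was present in 4 (Igll1, Rag1, Vpreb1 and Vpreb2), against 17.2% of 32851 mouse promoters of the same length. The RUNX motif was present in 3 of 7 against 14% of promoters, the Ikaros motif in 2 of 7 against 21.6%, the EBF1 core in 1 of 7 against 11.8%, and TATAAA in 0 of 7 against 12.4%.

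Vpreb1 and Vpreb2 lie on the same chromosome, 1109585 bases apart, and share part of their upstream sequence. The shared stretch of 103 bases is shown for Vpreb1 (chr16:16869259-16869361, minus strand) and for Vpreb2 (chr16:17980315-17980417, plus strand), with the E-box in capitals.
Vpreb1: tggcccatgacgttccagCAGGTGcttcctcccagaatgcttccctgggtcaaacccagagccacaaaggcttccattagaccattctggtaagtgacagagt
Vpreb2: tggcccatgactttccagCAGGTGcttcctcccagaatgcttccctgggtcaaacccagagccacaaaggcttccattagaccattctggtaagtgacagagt
These stretches differ by the single substitution G12T, with the Vpreb1 base first and positions counted from 1 at the 5′ end of the stretch, and 102 of 103 bases (99%) were identical. The likeness continued into the transcripts, where 739 of 759 aligned bases (97.4%) were identical and the longest run without a difference was 196 bases. Even so, only 47 of the 610 windows of 150 bases in the Vpreb2 transcript (7.7%) occur unchanged in that of Vpreb1. The methods name Cufflinks for the FPKM but do not say how reads that match both copies were placed, so the split between Vpreb1 and Vpreb2 is uncertain.

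Genes of the recombination reaction were low in control and, except for Rag2, much higher in SUV-OE. Dntt (ENSMUSG00000025014, chr19:41029275-41059525, plus strand, build mm10) was 0.0725 and 0.390 FPKM in control replicates 3 and 4, and 6.01 and 19.0 FPKM in SUV-OE replicates 2 and 3. Those values corresponded to 3, 14, 227 and 720 reads. The groups did not overlap, and the 947 SUV-OE reads stood against 17 control reads, a ratio of 57.0 after scaling to depth (exact binomial 95% interval 35.4 to 98.2, counting error only). On the log2(FPKM + 1) scale, which understates changes of low genes, the difference was 3.28 ± 0.52 (SE), the largest of the 7.

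Rag1 (ENSMUSG00000061311, chr2:101638282-101649501, minus strand), which carries the catalytic site of the recombinase, was 0.0700 and 0.143 FPKM in control and 2.09 and 7.32 FPKM in SUV-OE. The corresponding reads were 9, 16, 245 and 860, so that both SUV-OE libraries stood far above both control libraries. Its pooled read ratio was 45.2 (30.5 to 70.2) and its log2 difference 2.20 ± 0.48.

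Rag2 (ENSMUSG00000032864, chr2:101624718-101632529, plus strand), the partner that the RAG1 protein needs to cut DNA, behaved otherwise. Its values were 0.946 and 1.28 FPKM in control and 1.12 and 2.05 FPKM in SUV-OE, from 63, 74, 68 and 125 reads. The groups overlapped, since control replicate 4 lay above SUV-OE replicate 2. The log2 difference was 0.27 ± 0.23 and the pooled read ratio 1.44 (1.15 to 1.81), an interval of counting error that does not cover the spread between libraries.

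The level of Rag1 relative to Rag2 therefore differed between the groups. Per length, Rag1 was 0.0740 and 0.112 times the level of Rag2 in control and 1.87 and 3.56 times that level in SUV-OE. The genes are only 5753 bases apart and are transcribed from opposite strands, and both lie within the span of B230118H07Rik, a minus-strand gene. B230118H07Rik shares 208 exon bases with Rag2 on the other strand and 80 exon bases with Rag1 on the same strand. It was 10.9 and 18.8 FPKM in control and 7.54 and 8.83 FPKM in SUV-OE, several times the level of Rag2 in every library. The TruSeq v2 kit does not keep strand, so some reads counted for Rag2 cannot be told apart from reads of this gene, and its part in the Rag2 values was not tested.

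Surrogate light chain genes were also low in control and higher in both SUV-OE libraries. Vpreb1 (ENSMUSG00000059305, chr16:16868403-16870843, minus strand), which encodes the variable-like part of the surrogate light chain, was 0.277 and 0.745 FPKM in control and 6.23 and 19.3 FPKM in SUV-OE, from 6, 14, 123 and 381 reads. The groups were well separated, with a pooled read ratio of 25.8 (16.5 to 42.6) and a log2 difference of 3.02 ± 0.52. Its annotated span overlaps Top3b, a topoisomerase gene on the opposite strand, by 108 exon bases.

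Igll1 (ENSMUSG00000075370, chr16:16860671-16863985, minus strand), the λ5 gene, lies 4418 bases from Vpreb1. It was 0.166 and 0.411 FPKM in control and 4.11 and 15.3 FPKM in SUV-OE, from 7, 15, 158 and 589 reads. Igll1 followed Vpreb1 closely in every library: the ratio of Vpreb1 to Igll1 was 1.67 and 1.81 in the control libraries against 1.51 and 1.26 in the SUV-OE libraries, whereas the level of each was many times higher in SUV-OE. The log2 difference of Igll1 was 2.83 ± 0.56 and its pooled read ratio 34.7 (22.8 to 55.7).

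Vpreb2 (ENSMUSG00000059280, chr16:17980428-17981273, plus strand), the near copy of Vpreb1 whose product can also take part in the surrogate light chain, had 0 reads in each control library. In SUV-OE it was 1.97 and 3.28 FPKM, from 15 and 25 reads. With 3 reads per library as the limit that a count of 0 allows, equal to 0.359 and 0.414 FPKM, its level was at least 6.78-fold higher in SUV-OE. Its reads were few, and the log2 difference of 1.83 ± 0.23 depends on the pseudocount. Vpreb1 exceeded Vpreb2 by 3.16 and 5.87 times in SUV-OE replicates 2 and 3.

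Vpreb3 (ENSMUSG00000000903, chr10:75943057-75949657, plus strand), a relative of the VPREB genes that is expressed in B cell precursors and also beyond the pre-B stage, had the highest control level of the 7. It was 2.57 and 1.79 FPKM in control and 4.40 and 11.6 FPKM in SUV-OE, from 43, 26, 67 and 177 reads. The groups did not overlap, but the separation was smaller than for the other surrogate light chain genes, with a pooled read ratio of 3.62 (2.76 to 4.80) and a log2 difference of 1.38 ± 0.43.

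**Figure D1:**
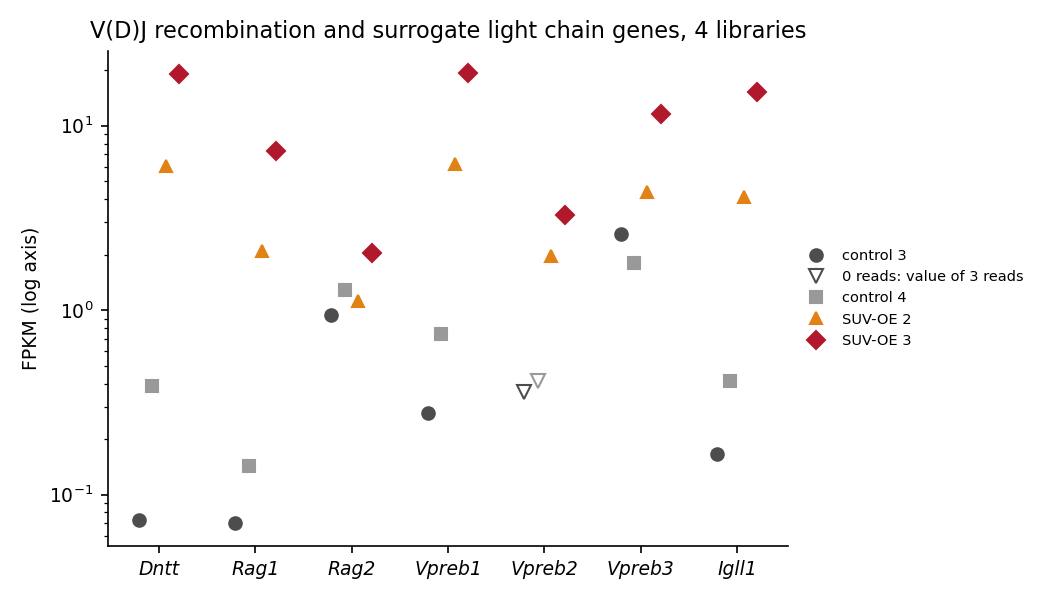
FPKM (log axis) of the 7 genes in the control libraries (grey) and the SUV-OE libraries (orange and red); each point is 1 library, and open triangles mark libraries with 0 reads, drawn at the value of 3 reads. Both SUV-OE points lie above both control points for every gene except Rag2, and SUV-OE replicate 3 is the highest library for all 7.

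In control the order of levels was Vpreb3, Rag2, Vpreb1, Igll1, Dntt, Rag1 and Vpreb2 in both libraries. In SUV-OE replicate 3 it was Vpreb1, Dntt, Igll1, Vpreb3, Rag1, Vpreb2 and Rag2, and in replicate 2 Vpreb3 and Igll1 changed places. With 2 libraries per group that differed up to several-fold, neighbours in this order such as Vpreb1 and Dntt in SUV-OE (6.23 against 6.01 and 19.3 against 19.0 FPKM) cannot be separated beyond their spread. Reads of all 7 genes together numbered 131 and 159 in the control libraries against 903 and 2877 in the SUV-OE libraries. Because RNA was taken from bulk cells, fewer cells of a type and less RNA per cell cannot be told apart in any of these values.

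All 7 genes passed the filter of a mean of 0.5 FPKM over the 4 libraries, but 4 of them (Dntt, Rag1, Vpreb2 and Igll1) had a control mean under 0.5 FPKM and passed only through SUV-OE. Both SUV-OE libraries were above both control libraries for 6 of 7 genes. Over the 13736 genes tested, that order was found for 25.4%, and the opposite order for 28.4%. Limma called 168 genes at an adjusted p under 0.05 and an absolute log2 difference of at least 1 (1.22%), of which 112 were higher in SUV-OE (0.815%). Of the members, Vpreb2 alone met these thresholds. That number was 0 with a pseudocount of 0.1, with quantile normalization, without the filter and in each fit without 1 library, and 4 with limma-voom on the recovered reads, which called 651 of 14275 genes (4.56%). Nothing is read from these counts, since the members were selected on this contrast.

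Levels of the 7 genes also differed between the SUV-OE libraries. SUV-OE replicate 3 exceeded replicate 2 for all 7, with FPKM ratios from 1.66 to 3.72 and a median of 3.09. Igll1 had a ratio of 3.72 (95% counting interval 3.12 to 4.46), Rag1 3.50 (3.04 to 4.05), Dntt 3.17 (2.72 to 3.69) and Vpreb1 3.09 (2.52 to 3.82), all with overlapping intervals. Vpreb3 followed with 2.64 (1.98 to 3.55) and Rag2 with 1.83 (1.35 to 2.50). For Vpreb2 the interval of 0.843 to 3.39 around 1.66 included 1. Over the 13618 tested genes with a value above 0 in SUV-OE replicate 2 the median ratio was 1.0, and 5.43% had a ratio above 1.5, as all 7 members did.

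Between the control libraries, replicate 4 was higher than replicate 3 for 5 of 7 genes. The ratio for Dntt was 5.38, although with 3 and 14 reads its counting interval ran from 1.5 to 29.2. Dntt relative to Rag1 was 1.04 in control replicate 3 and between 2.60 and 2.88 in the other 3 libraries.

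The transcription factors of early B lymphopoiesis, a list chosen from general knowledge with earlier results of these data known, contained genes with the same profile and genes with another. Of 16 tested genes 12 were higher and 4 lower in SUV-OE. Their median log2 difference was 0.56, against a median of -0.02 over all genes tested. Both SUV-OE libraries were above both control libraries for 11 and below them for 1 (Ikzf3), beside 25.4% and 28.4% over all genes tested. Irf8, a factor of myeloid, dendritic and B lineages, was the only one called by limma, at 5.22 and 5.01 FPKM in control and 11.6 and 11.04 FPKM in SUV-OE, with a log2 difference of 1.01 ± 0.11 and a limma adjusted p of 0.0405. The call was lost in each of the 4 fits without 1 library and without the filter on low values. Of the 16, 10 had an unadjusted p under 0.05, against 20.7% of all genes tested. Limma-voom on the recovered reads, which called 4.56% of all genes it tested, called 7 of the 20 listed genes, Irf8, Pax5, Foxo1, Irf4, Spib, Lef1 and Bcl11a.

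Ebf1, which specifies the B lineage and activates surrogate light chain genes, was 0.0105 and 0.0729 FPKM in control and 0.705 and 2.39 FPKM in SUV-OE, but its difference of 1.21 did not pass the test (limma adjusted p = 0.173). Pax5, the B lineage commitment factor, was 0.0232 and 0.0335 FPKM in control and 0.637 and 1.96 FPKM in SUV-OE, with a difference of 1.10 and an adjusted p of 0.168 by limma. Sox4, needed for early B cell development, was 10.5 and 4.61 FPKM in control and 16.9 and 16.2 FPKM in SUV-OE (1.13, limma adjusted p = 0.184). The ratio between SUV-OE replicates 3 and 2 set these factors apart: it was 3.39 for Ebf1 and 3.08 for Pax5, near the members' median, but 0.961 for Sox4 and 0.949 for Irf8. Tcf3, which encodes E2A, was between 27.8 and 43.6 FPKM in all 4 libraries, with a difference of -0.04 (limma adjusted p = 0.931).

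Partners and signalling genes of the pre-B cell receptor gave a similar picture. Of 17 tested genes 14 were higher and 3 lower, with a median of 0.25. Both SUV-OE libraries were above both control libraries for 9 and below for 0, against 25.4% and 28.4% of all genes tested. An unadjusted limma p under 0.05 was found for 5 of the 17, against 20.7% of all genes tested. Ighm, the μ heavy chain with which the surrogate light chain pairs, was 25.3 and 23.3 FPKM in control and 61.6 and 87.7 FPKM in SUV-OE. It rose by 1.56 ± 0.20 (limma adjusted p = 0.0499) and was the only gene of this list called by limma, just under the threshold. That call was lost without any 1 of the 4 libraries, with a pseudocount of 0.1, without the filter on low values and without the intensity trend. Cd79a, a signalling chain of the receptor, was 0.635 and 1.10 FPKM in control and 5.49 and 11.7 FPKM in SUV-OE, a larger difference of 2.29 ± 0.35 that missed the threshold (limma adjusted p = 0.0669).

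Il7r, the receptor chain for interleukin 7, was 0.465 and 0.425 FPKM in control and 1.44 and 2.45 FPKM in SUV-OE (1.01, limma adjusted p = 0.113). Limma-voom on the recovered reads called Cd79a and Il7r as well as Ighm, 3 of the 18 listed genes it tested, beside 4.56% of all genes it tested. Cd79b, the other signalling chain, was 17.4 and 25.0 FPKM in control and 17.2 and 23.4 FPKM in SUV-OE, so Cd79a and Cd79b did not share 1 profile across the libraries. Kinases and adaptors of the pathway that myeloid cells also use, such as Syk, Btk and Lyn, differed by 0.06, 0.10 and 0.11.

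**Figure D2:**
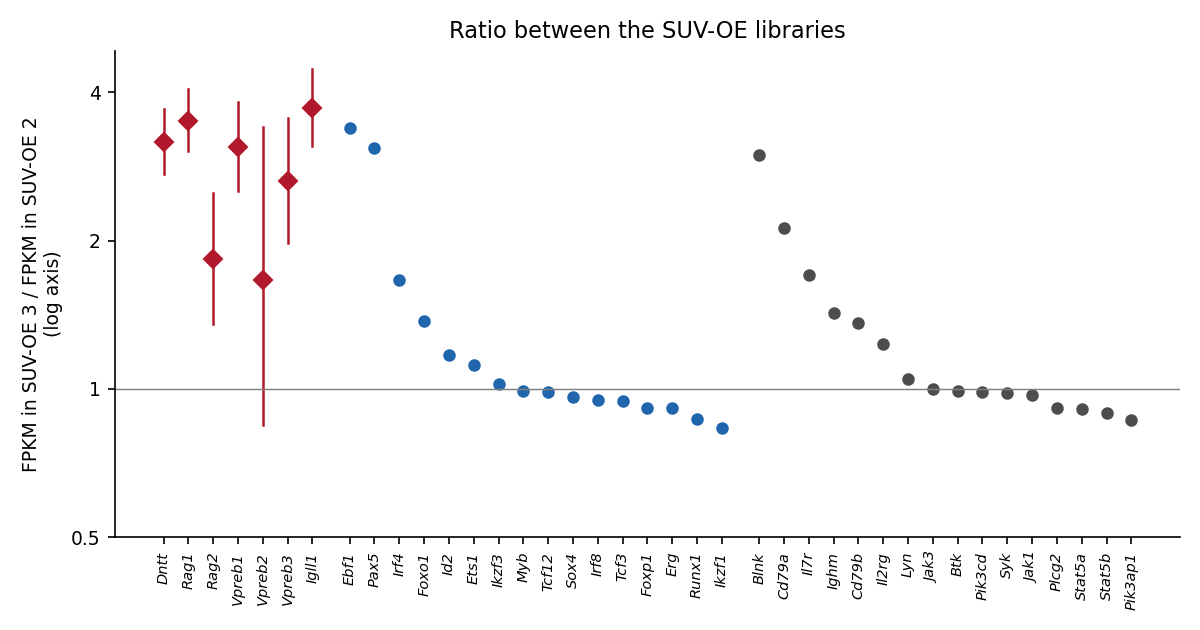
FPKM in SUV-OE replicate 3 divided by FPKM in SUV-OE replicate 2 (log axis) for the 7 genes (red, with 95% counting intervals), the tested transcription factors of early B lymphopoiesis (blue) and 16 tested pre-B cell receptor genes (dark grey), each list ordered by the ratio and drawn without intervals. The 7 genes lie between 1.66 and 3.72, a range that Ebf1, Pax5, Irf4, Blnk, Cd79a and Il7r share, while most other genes lie near 1.

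Among the genes whose profile over the 4 libraries was most like the mean profile of the 7 members were Cd79a, Ighd1-1, Tspan13 and Mzb1. Likeness was the root mean square distance between centred log2(FPKM + 1) values, which was 0.141 for Cd79a, 0.162 for Ighd1-1, 0.173 for Tspan13 and 0.194 for Mzb1, against a median of 1.16 over all genes tested. Ighd1-1, an immunoglobulin heavy chain diversity segment, was 0 FPKM in both control libraries and 2.45 and 4.89 FPKM in SUV-OE. Mzb1, which encodes an endoplasmic reticulum protein of B lineage cells, was 0 and 0.196 FPKM in control and 1.49 and 7.27 FPKM in SUV-OE. Tspan13, a tetraspanin gene, was 0.769 and 0.719 FPKM in control and 4.19 and 8.03 FPKM in SUV-OE. These are descriptions over 4 libraries.

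For the end joining enzymes and DNA binding partners that complete recombination, differences were smaller than those of every member except Rag2. Of 14 tested genes 6 were higher and 8 lower, with a median of -0.04 and differences from -0.41 to 0.22. Both SUV-OE libraries were above both control libraries for 5 and below for 5, beside 25.4% and 28.4% of all genes tested. None was called by limma or by limma-voom on the recovered reads, and limma adjusted p-values ran from 0.198 to 0.940. An unadjusted limma p under 0.05 was found for 2 of the 14, against 20.7% of all genes tested. The largest differences were those of Polm, a polymerase related to Dntt (-0.41), of Hmgb1, a DNA-bending cofactor of the recombinase (-0.40), of Paxx (-0.34) and of Xrcc4 (-0.27), both factors of end ligation. Dclre1c, which encodes the Artemis nuclease that opens the hairpin ends, was 2.50 and 2.40 FPKM in control and 3.01 and 3.05 FPKM in SUV-OE.

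Markers of other cells were read beside these values. Of 10 mature B cell markers, limma tested only Cd37 (0.30, limma adjusted p = 0.775), limma-voom tested Cd37, Bank1 and Cd72 and called 0, and Ms4a1, which encodes CD20, was at most 0.0287 FPKM in any library. The summed level of these 10 was 2.82 and 8.63 FPKM in control and 7.06 and 7.29 FPKM in SUV-OE, mainly Cd37. The other 9, all under the filter for limma, summed to 0.931 and 1.28 FPKM in control and 1.501 and 2.75 FPKM in SUV-OE. They did not move together. Cd72, Ighd, Cxcr5, Fcrla and Cr2 were higher in both SUV-OE libraries, Bank1 and Fcer2a were lower in both, and Cd22 and Ms4a1 overlapped. Most of them had few reads. Of the T-lineage markers, 13 of 14 were in the table and 5 were tested, 4 higher and 1 lower, with a median of 0.20. Both SUV-OE libraries were above both control libraries for 3 of the 5 and below for 1, beside 25.4% and 28.4% of all genes tested. Of the 5, 2 had an unadjusted limma p under 0.05, against 20.7% of all genes tested. Limma called 0 of these T-lineage markers and limma-voom also 0. Their largest differences were those of Lck (-0.59), Bcl11b (0.53), Cd4 (0.44) and Tcf7 (0.20). Defining T cell genes were at or near 0, with Cd8a at 0 FPKM in both control libraries and at most 0.0155 in SUV-OE and Ptcra at most 0.0462 in any library. The summed level of the 13 was 8.32 and 8.75 FPKM in control and 9.84 and 10.1 FPKM in SUV-OE, set mostly by Lat, Bcl11b and Lck.

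Plasmacytoid dendritic cells can express Dntt and Rag genes too, so their markers were listed as well. Of 6 tested genes 5 were higher and 1 lower, with a median of 0.36. Both SUV-OE libraries were above both control libraries for 4 and below for 0, beside 25.4% and 28.4% of all genes tested. Limma called 0, and 2 of the 6 had an unadjusted limma p under 0.05, against 20.7% of all genes tested. Limma without the intensity trend called 1. Limma-voom, which called 4.56% of all genes it tested, called 1 of the 4 it tested here, Tcf4. Tcf4, the factor that defines these cells, was 0.473 and 0.498 FPKM in control and 2.15 and 2.01 FPKM in SUV-OE (1.05 ± 0.15, limma adjusted p = 0.0585), and its ratio between SUV-OE replicates 3 and 2 was 0.937. Ly6d differed by 0.83 and had a ratio of 2.12, inside the members' range. Runx2 differed by 0.47 and Bst2 by 0.26. Siglech, a defining surface marker, was at most 0.0831 FPKM in any library. The summed level of the 9 markers was 62.7 and 69.7 FPKM in control and 79.9 and 85.6 FPKM in SUV-OE, mainly Bst2.

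Myeloid progenitor markers were the most abundant of all lists in every library. Of 12 tested genes 6 were higher and 6 lower, with a median of 0.02. Both SUV-OE libraries were above both control libraries for 3 and below for 5, beside 25.4% and 28.4% of all genes tested. Limma called 0, as did limma-voom, and 4 of the 12 had an unadjusted limma p under 0.05, against 20.7% of all genes tested. Ctsg, a granule protease, was 2236 and 2787 FPKM in control and 1226 and 1353 FPKM in SUV-OE (-0.95, limma adjusted p = 0.198). Flt3, a receptor of early progenitors that lymphoid precursors also carry, was 10.3 and 9.08 FPKM in control and 6.20 and 4.18 FPKM in SUV-OE (-0.81, limma adjusted p = 0.133). Csf3r and Kit differed by 0.80 and 0.43. The summed level of the 12 was 5280 and 5918 FPKM in control and 3868 and 4669 FPKM in SUV-OE, against 25.9 and 77.8 FPKM for the sum of the 7 members in SUV-OE. Without Ctsg the groups overlapped, at 3044 and 3131 FPKM in control and 2642 and 3317 FPKM in SUV-OE. Cd79a and Ighm were higher in both SUV-OE libraries, as most members were, although Ighm was already 25.3 and 23.3 FPKM in control. Other listed B lineage genes were not: Cd79b overlapped between the groups, and Ikzf3 and Bank1 were lower in both SUV-OE libraries. Whether the members' values came from the same cells as any of these genes was not tested.

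**Figure D3:**
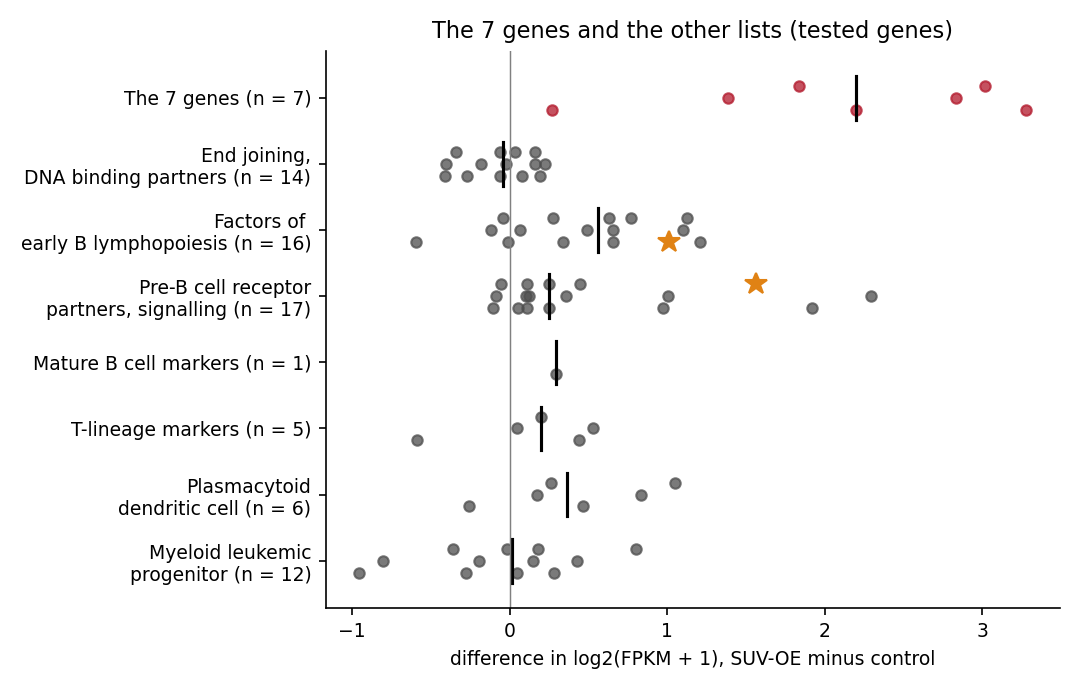
Difference in log2(FPKM + 1), SUV-OE minus control, for the 7 genes (red) and the tested genes of the other lists (grey); each point is 1 gene, black bars are medians, stars mark genes called by limma outside the 7, and points are spread vertically for legibility only. The median was 2.20 for the 7 genes, 0.56 for the transcription factors of early B lymphopoiesis and between -0.04 and 0.36 for the other lists.

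Genes around the members mostly had small differences of the opposite sign. Within 100 kb of the 7 genes the table held 30 other genes, of which 18 were tested. Of these, 3 were higher and 15 lower in SUV-OE, with a median of -0.26. Both SUV-OE libraries were above both control libraries for 2 and below for 8 of the 18, against 25.4% and 28.4% of all genes tested. Limma called 0 and limma-voom also 0, 6 of the 18 had an unadjusted limma p under 0.05 (20.7% of all genes tested), and adjusted p-values ran from 0.0831 to 0.960.

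Beside Dntt, at 34740 bases, lies Blnk, which encodes an adaptor of the pre-B cell receptor and is therefore itself a B lineage gene. Blnk was 0.0429 and 0.109 FPKM in control and 0.602 and 1.79 FPKM in SUV-OE, with a difference of 0.98 ± 0.31 (limma adjusted p = 0.187), the highest of the neighbours. Traf6, the tested gene nearest to Rag1 on its right, differed by -0.13. Next to Vpreb1, Top3b was 20.0 and 14.7 FPKM in control and 13.1 and 12.1 FPKM in SUV-OE (-0.42). Ppm1f, a phosphatase gene 25626 bases from Vpreb1, was 50.2 and 41.4 FPKM in control and 26.6 and 24.1 FPKM in SUV-OE, the lowest difference of the 18 (-0.82, limma adjusted p = 0.0831). Slc25a1 and Dgcr6 beside Vpreb2 differed by -0.26 and -0.44, and Chchd10 and Gm5134 beside Vpreb3 by -0.33 and -0.26.

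**Figure D4:**
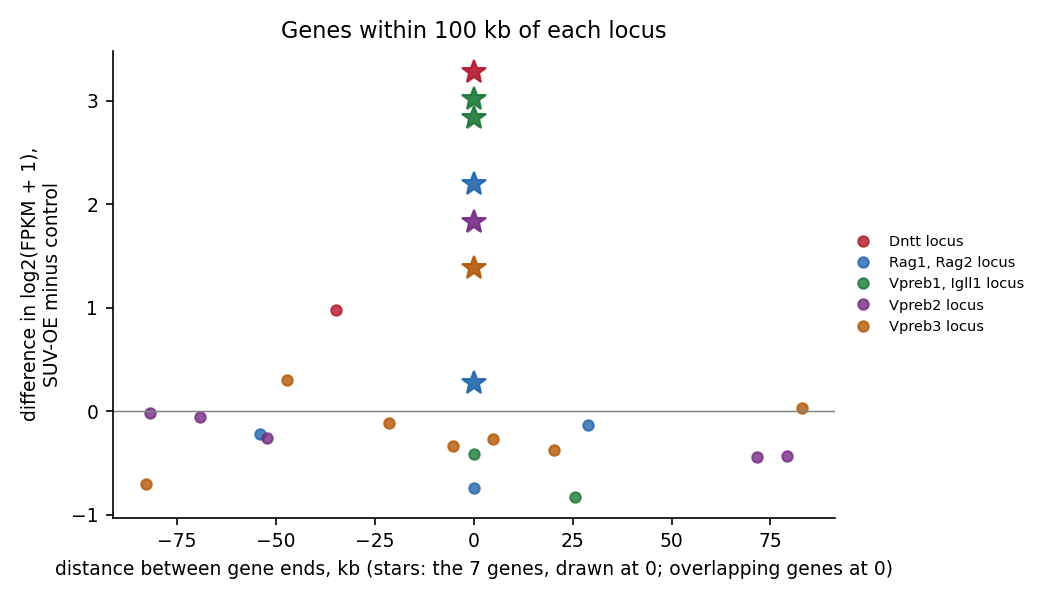
Difference in log2(FPKM + 1), SUV-OE minus control, of tested genes within 100 kb of the members, against their distance in kb from the nearest member of the locus (left or right along the chromosome, overlapping genes at 0); stars are the 7 genes, drawn at 0. Among the 18 neighbours Blnk, at 0.98, is the highest, Derl3, at 0.30, lies just above Rag2, and 15 lie below 0.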

How the data were processed

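The 7 genes and all lists were chosen with earlier results of these data known. Total RNA of AML c-Kit+ cells was sequenced by the authors from TruSeq v2 libraries as paired ends of 150 bases. Per the methods, TopHat2 aligned reads to mm10, and the submitters' processing notes also name CASAVA 1.8. The methods name Cufflinks as the source of FPKM, although most deposited values were whole multiples of 1 read. FPKM per gene were deposited by the authors for each library, and the annotation release and the versions of other tools are not given in the sources used here.

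Groups were contrasted on log2(FPKM + 1) using limma 3.58.1 (R 4.3.3), with group as the only term and an intensity trend, for genes with a mean of at least 0.5 FPKM. Calls needed a Benjamini-Hochberg adjusted p under 0.05 and an absolute log2 difference of at least 1. The script was tested on simulated data. An exact permutation test of 2 against 2 samples cannot go below a two-sided p of 0.333, so none was used.

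Reads were worked back from the FPKM as whole multiples of the value of 1 read, with GENCODE M21 exon lengths (78.5% of 23552 genes whole within 0.01 read) or, for 4617 genes, another length at which every value was whole. For members, Vpreb1, Vpreb2 and Dntt used such other lengths. Vpreb2 had values above 0 in SUV-OE only, too few for this search under the rule used for other genes, and was searched because it is a member. Its reads are therefore less certain. Limma-voom on these reads was run as an alternative to the test on FPKM, with a minimum mean of 10 reads. Ratios have exact binomial 95% intervals that cover counting error only. For 114 identifiers no GENCODE entry was found.

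Named from each list were all genes called and the 4 with the largest absolute difference; also named were the nearest tested protein-coding neighbours and the 5 closest profiles. Cd79b, Tcf3, Ikzf3, Dclre1c, Syk, Btk, Lyn, Elane and the markers near 0 were added after their values were seen. Upstream sequences and motif shares came from a RefSeq promoter table of GRCm38.p6. Protein sequences were not used here, and 1 gene that the naming rule selects is not reported here.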

Additional observations from a re-analysis of the deposited data

How the results depend on the processing

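Differences of the 7 genes were above 0 in all 56 combinations of gene and alternative setting, none reversed, and 44 moved by less than the spread between replicates. Rag2 ran from 0.01 to 0.54 over these settings. Part of this tally was fixed in advance and carries no weight. With 2 libraries per group, leaving out 1 cannot move a difference by more than the spread between replicates used here. Nor can it reverse any of the 6 genes whose groups did not overlap. The members' median of 2.20 became 4.31 with a pseudocount of 0.1 and 4.88 with limma-voom on recovered reads, both of which shrink low genes less than a pseudocount of 1, and ran from 1.57 (without SUV-OE replicate 3) to 2.91 (without SUV-OE replicate 2) when 1 library was left out. The 168 genes called became 0 without a filter on low values, for which the cause was not tested, 0 in each fit without 1 library, control 3, control 4, SUV-OE 2 or SUV-OE 3 (0 to 0, with a single sample left in 1 group that is assumed to vary like the other), and 651 with limma-voom, where 77.1% rather than 66.7% were higher in SUV-OE. The same settings took the 2 list genes called, Irf8 and Ighm, to 0 without a filter, to 0 to 0 without 1 library and to 11 with limma-voom, and a pseudocount of 0.1 left 1. Beside the fits without 1 library, 1146 to 3895 genes had an unadjusted p under 0.05. No neighbouring gene was called under any of these settings, nor by limma-voom, which was added for the neighbours after seeing the data. Scalings by quantiles or median-of-ratios moved the median of all genes by less than 0.1 and changed no direction of a member.

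No paired analysis was possible because control and SUV-OE have only 1 replicate number in common. With 2 libraries per group, and with controls at 0 to 16 reads for Dntt, Rag1, Vpreb1, Vpreb2 and Igll1, the size of a fold depends on few reads.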

Other observations

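Several B lineage genes lay under the filter of 0.5 FPKM and so were not tested on log2(FPKM + 1). Spib, a factor of B and plasmacytoid dendritic cells, was 0.0179 and 0.103 FPKM in control and 0.648 and 1.02 FPKM in SUV-OE. Lef1, a factor of early lymphoid cells, was 0.00585 and 0.0337 FPKM in control and 0.295 and 0.736 FPKM in SUV-OE. Bcl11a, needed for lymphoid development, was 0.0975 and 0.0540 FPKM in control and 0.590 and 0.841 FPKM in SUV-OE. All 3 were among the 7 transcription factors that limma-voom called, with Pax5, Foxo1, Irf4 and Irf8. Cd72, a B cell surface receptor gene, was 0.0751 and 0.208 FPKM in control and 0.593 and 1.10 FPKM in SUV-OE, whereas Bank1, an adaptor gene of more mature B cells, was 0.611 and 0.744 FPKM in control and 0.309 and 0.225 FPKM in SUV-OE. Limma-voom tested both and called neither. These genes were picked after their values were seen.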
